A study of Mus musculus with 6 samples.

Results

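The glucose transporters and glycolysis regulators described here are 9 genes that set how much glucose enters a brain cell and how fast glycolysis uses it. They were chosen by name from the 13192 genes the authors tested. They are the glucose transporters Slc2a1 and Slc2a3, the enzymes Hk2 and Pfkl, the regulatory enzymes Pfkfb2, Pfkfb3 and Pfkfb4, the transcription factor subunit Hif1a and the transporter regulator Txnip. All 9 names were found in the table, each once. RNA came from cortex of mice at postnatal day 25 by precipitation of HA-tagged ribosomes with their mRNA, and 6 libraries formed 2 groups of 3. The Rheb cKO group had floxed Rheb alleles (Rheb floxp/floxp), 1 copy of the ribosome tag Ribo-HA (k/+) and Syn-Cre, a name used for Cre recombinase driven by the promoter of the neuronal synapsin gene. Its genotype label reads Rheb knockdown. The Control group shared the floxed alleles and the tag, and its titles name no Cre. Whether tagged ribosomes form without Cre in that group is not stated, so a loss of Rheb and a difference in what the antibody pulled down cannot be told apart. The label calls the cell type neuron, and nothing in the labels ties a library to an animal of its own.

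Expression was measured as FPKM, fragments scaled to gene length and to the number of mapped fragments, with 1 value per gene for each group, pooled by the authors over its libraries. The spread between libraries and their depth are therefore unknown here, and no SD or counting interval is given. A gene is called when the q-value of the authors' Cuffdiff comparison, adjusted over the whole table, is under 0.05. Rheb itself, a small GTPase that activates the growth kinase complex mTORC1, stood at 9.20 FPKM in Rheb cKO, against 22.7 FPKM in Control. This is 40.6% of the Control level (q = 0.00161 in the authors' deposited table).

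Glucose crosses cell membranes through facilitative transporters of the SLC2 family. Slc2a1 encodes GLUT1, the main carrier of the blood-brain barrier and of astrocytes, and Slc2a3 encodes GLUT3, the high-affinity carrier of neurons. Inside the cell hexokinase traps glucose as a phosphate, and phosphofructokinase takes the step that commits it to glycolysis. PFKFB enzymes make and remove the sugar bisphosphate that is the strongest activator of phosphofructokinase. HIF1 alpha, the oxygen-regulated subunit encoded by Hif1a, switches on many glycolytic genes, and mTORC1 is known to raise its synthesis. TXNIP, an alpha-arrestin induced by glucose, removes glucose transporters from the cell surface.

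Among the 9 genes, Pfkfb3 fell and Slc2a3 rose in Rheb cKO, and the other 7 were not called. Called higher was 1 member, against a background of 4.14% of all tested genes, and called lower was 1, against 4.58%. Both directions together gave 2 of 9 members (22.2%), beside 8.72% of all tested genes. At an unadjusted p under 0.05 the count was 3 of 9 (33.3%), beside 21.2% of the table, and the third gene was Hif1a. With 9 members these shares rest on single genes and say nothing about the group. The median log2 fold change of the members was 0.12, with 5 above 0 and 4 below, beside 0.03 over the 13175 genes with a finite fold. Without regard to sign, the median was 0.21 for the members and 0.19 for all of these genes.

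**Figure D1:**
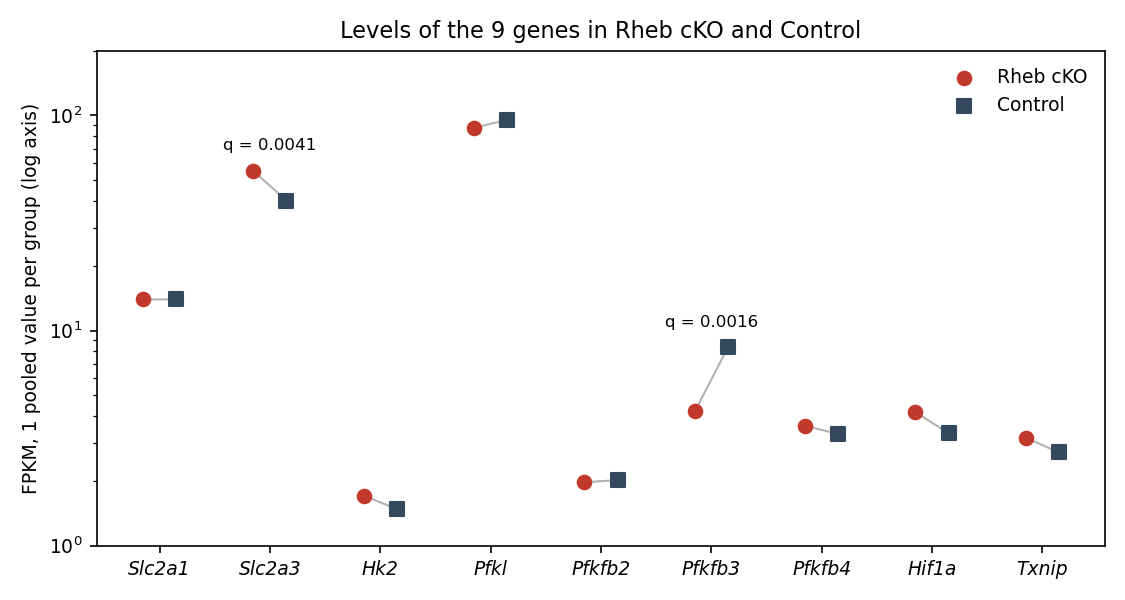
FPKM of each of the 9 genes, on a log axis, with the pooled Rheb cKO value as a circle on the left of each pair and the pooled Control value as a square on the right; there are no error bars, since each group has 1 value. The pairs of Slc2a3 (55.2 and 40.2 FPKM) and Pfkfb3 (4.21 and 8.35 FPKM) are the 2 with a q-value under 0.05 in the authors' deposited table.

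The sequences around the start sites of a few members are shown because HIF1 acts through a short core, ACGTG, which the E-box CACGTG also contains. Both were searched on both strands in RefSeq promoter windows of GRCm38.p6 (the build also called mm10), 250 bases before and 50 after each start site. Of the 9 genes, 8 matched the promoter table, with 11 windows in all. ACGTG occurred in 7 of the 11 windows and in at least one window of 5 genes, Slc2a1, Hk2, Pfkfb2, Pfkfb3 and Hif1a. Over all 32851 windows of the table it occurred in 19.6%. CACGTG occurred in 3 of the 11 windows, of Pfkfb2, Pfkfb3 and Hif1a, and in 7.15% of all windows. These backgrounds count windows, not genes, and were not matched for GC content. Pfkfb2 and Pfkfb3 had more windows than the other genes, and windows of Pfkfb2 partly overlapped. The windows of Pfkl, Pfkfb4 and Txnip held neither exact word. Variants of these words were not searched, so sites of glucose-responsive factors are not covered. Printed are both windows of Pfkfb3, the member that fell, and those of Slc2a1 and Hk2, which hold the same core and were not called. Letters run 5′ to 3′ on the strand of the gene, and capitals mark ACGTG on either strand (CACGT is the same core on the other strand) or the E-box.

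Pfkfb3, upstream start, chr2:11553880-11554179, minus strand: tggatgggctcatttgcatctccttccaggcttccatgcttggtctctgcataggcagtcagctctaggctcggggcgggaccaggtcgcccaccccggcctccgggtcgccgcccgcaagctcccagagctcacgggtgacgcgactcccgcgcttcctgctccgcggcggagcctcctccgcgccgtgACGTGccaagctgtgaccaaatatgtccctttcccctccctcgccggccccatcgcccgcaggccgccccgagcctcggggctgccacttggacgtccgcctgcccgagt
Pfkfb3, internal start, chr2:11502041-11502340, minus strand: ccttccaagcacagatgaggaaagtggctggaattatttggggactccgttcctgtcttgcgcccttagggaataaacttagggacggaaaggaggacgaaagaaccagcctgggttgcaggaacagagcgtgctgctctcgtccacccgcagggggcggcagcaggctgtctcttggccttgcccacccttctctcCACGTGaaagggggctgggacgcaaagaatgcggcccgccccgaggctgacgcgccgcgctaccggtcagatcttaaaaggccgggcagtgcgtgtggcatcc
Slc2a1, chr4:119108495-119108794, plus strand: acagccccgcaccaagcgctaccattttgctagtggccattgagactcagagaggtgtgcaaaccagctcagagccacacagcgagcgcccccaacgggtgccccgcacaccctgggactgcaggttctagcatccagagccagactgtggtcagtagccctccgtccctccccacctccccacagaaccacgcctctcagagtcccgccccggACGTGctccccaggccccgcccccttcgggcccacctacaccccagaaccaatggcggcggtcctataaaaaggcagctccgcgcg
Hk2, chr6:82774405-82774704, minus strand: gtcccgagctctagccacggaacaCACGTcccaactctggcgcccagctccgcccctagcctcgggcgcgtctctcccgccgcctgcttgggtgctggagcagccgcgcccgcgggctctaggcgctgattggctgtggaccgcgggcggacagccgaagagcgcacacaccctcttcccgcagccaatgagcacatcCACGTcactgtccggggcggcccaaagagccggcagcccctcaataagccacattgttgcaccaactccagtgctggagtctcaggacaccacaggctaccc

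With positions counted from the start site, the core begins at -60 in the upstream Pfkfb3 window, and an E-box begins at -53 in the internal one. In Slc2a1 the core begins at -36. Hk2 has cores that begin at -226 and at -52. A match of letters is no evidence of binding, and expression was measured per gene, so the use of either Pfkfb3 start is not known from these values.

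The neuronal glucose transporter gene rose, and the barrier and glial one had almost the same level in both groups. Slc2a3 spans chr6:122727809-122801640 on the minus strand. It stood at 55.2 FPKM in Rheb cKO, against 40.2 FPKM in Control, so that Rheb cKO held 137% of the Control level. The authors' deposited table gives a log2 fold change of 0.46 (q = 0.00406). In size this was an ordinary change for a called gene, rank 388 by fold among the 546 called higher. Slc2a3 was also among the more abundant genes, above 85.4% of the tested genes in Rheb cKO and 80.8% in Control.

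Slc2a1, at chr4:119108711-119137983 on the plus strand, stood at 13.95 FPKM in Rheb cKO and 13.96 FPKM in Control. Its log2 fold change in the authors' deposited table was -0.00064 (q = 0.999). Among genes with a mean FPKM of 5 to 20, 99.9% had a fold further from 0. Since FPKM is scaled to length, the levels of the pair can be compared. Slc2a3 was 3.96 times as abundant as Slc2a1 in Rheb cKO and 2.88 times in Control. Its share of their summed FPKM was 79.8% in Rheb cKO and 74.2% in Control. Over the 6 listed SLC2 genes that were tested, its share was 57.0% in Rheb cKO and 45.5% in Control. For Slc2a1 and Slc2a3 alone the sum was 69.2 FPKM in Rheb cKO and 54.2 FPKM in Control, and that gap lay in Slc2a3. Whether the pair differ in their response was not tested, because the pooled values carry no spread.

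Of 15 listed sugar transporters of the SLC2 family and their relatives, 7 were tested, of which 2 rose, 1 fell and 4 were not called. Called were 42.9% of the 7, beside 8.72% of all tested genes, a share that rests on single genes. The median log2 fold change of the 7 was 0.09. Besides Slc2a3, the riser was Slc2a4, which encodes GLUT4, the insulin-responsive transporter. It stood at 1.56 FPKM in Rheb cKO, against 0.530 FPKM in Control (log2 fold change 1.55, q = 0.00161, in the authors' deposited table), a large ratio between low levels. Slc2a6, a transporter of intracellular membranes, fell to 11.1 FPKM in Rheb cKO, against 17.4 FPKM in Control (-0.65, q = 0.00161, in the authors' deposited table). Those not called, beside Slc2a1, were Slc2a8 with a log2 fold change of -0.35, Slc45a1 with 0.09 and Slc2a13, a myo-inositol carrier, with 0.10 in the authors' deposited table.

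**Figure D2:**
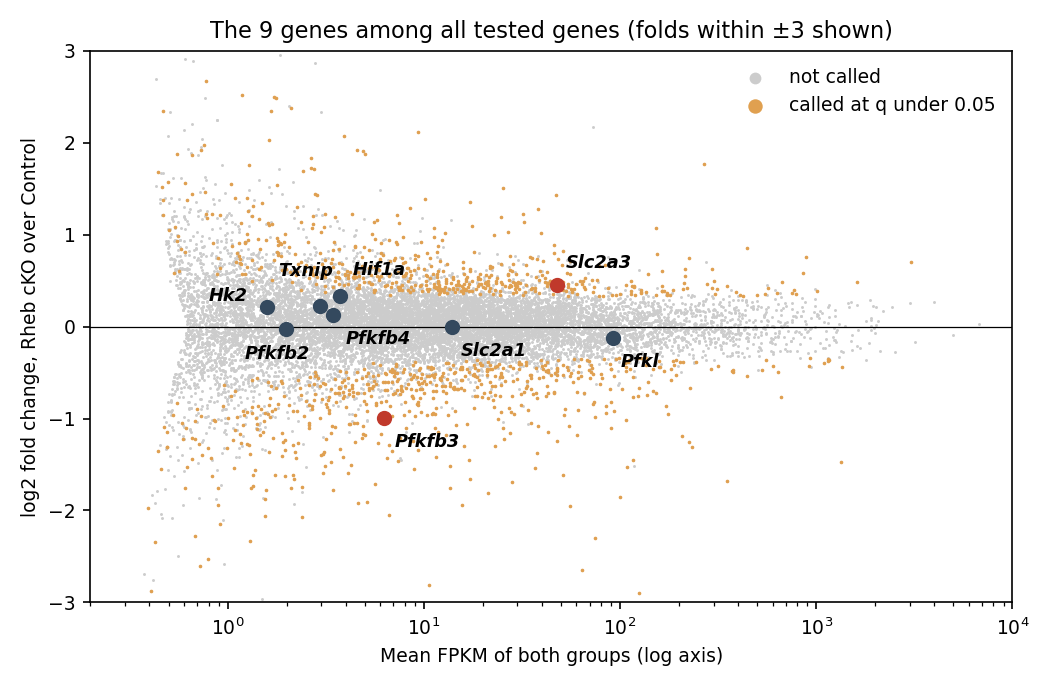
Log2 fold change, Rheb cKO over Control, against the mean FPKM of both groups on a log axis for all tested genes with a finite fold; 12 genes with a fold beyond 3 in either direction lie outside the panel. Small grey points are genes not called, small orange points called genes, large red points the called members and large dark points the other members. Pfkfb3 lies below most genes of its level, Slc2a3 among the genes called higher, and the other 7 among genes that were not called.

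Hexokinase 2 was scarce and was not called. Hk2, at chr6:82725025-82774454 on the minus strand, encodes an inducible hexokinase of muscle, fat and growing cells. Its level was 1.71 FPKM in Rheb cKO and 1.48 FPKM in Control, the lowest of the 9 genes in both groups. The log2 fold change in the authors' deposited table was 0.21 (q = 0.885). Hk1, the standard hexokinase of brain, stood at 170.3 FPKM in Rheb cKO and 145.3 FPKM in Control (0.23, q = 0.236, in the authors' deposited table). Hk2 thus made up 0.993% of the summed FPKM of the pair in Rheb cKO and 1.01% in Control, so that Hk1 carried nearly all of it in either group. Of 7 listed hexokinases and regulators 5 were tested, 1 fell and 4 were not called (20% called, beside 8.72% of all tested genes). The one that fell was Hkdc1, a further hexokinase-like gene, with 4.10 FPKM in Rheb cKO, against 6.31 FPKM in Control (-0.62, q = 0.0104, in the authors' deposited table).

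Phosphofructokinase subunits were abundant and none was called. Pfkl encodes the liver-type subunit and spans chr10:77986947-78010083 on the minus strand. It was the most abundant of the 9 genes, with 87.5 FPKM in Rheb cKO and 95.6 FPKM in Control (log2 fold change -0.13, q = 0.615, in the authors' deposited table). The muscle-type subunit Pfkm stood at 227.3 FPKM in Rheb cKO and 199.1 FPKM in Control, and the platelet-type subunit Pfkp at 157.4 FPKM in Rheb cKO and 149.8 FPKM in Control. In the authors' deposited table their log2 fold changes were 0.19 (q = 0.385) for Pfkm and 0.07 (q = 0.895) for Pfkp. Pfkl was the one of the 3 with a fold below 0. It held 18.5% of the summed FPKM of the subunits in Rheb cKO and 21.5% in Control, while the sum was 472.3 FPKM in Rheb cKO and 444.5 FPKM in Control. At this level the smallest fold that Cuffdiff called among genes with a mean FPKM between 20 and 100 was 0.34, without regard to sign, so the Pfkl value of -0.13 lies under what the comparison called.

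Of the PFKFB genes, Pfkfb3 fell and its relatives Pfkfb2 and Pfkfb4 were not called. Pfkfb3 encodes the isoform with the highest kinase over phosphatase activity, the one that most favours glycolysis, and in rodent neurons its protein is known to be kept low by degradation. The gene spans chr2:11471433-11554077 on the minus strand. Its level was 4.21 FPKM in Rheb cKO, against 8.35 FPKM in Control, which left 50.4% of the Control level. The authors' deposited table gives a log2 fold change of -0.99 with q = 0.00161, the smallest q it holds, which 410 genes share. By fold it ranked 163 among the 604 genes called lower. Among genes with a mean FPKM of 5 to 20, 1.29% had a fold further from 0.

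Pfkfb2, at chr1:130689182-130729253 on the minus strand, encodes the heart-type isoform, which hormone-activated kinases switch on. It stood at 1.97 FPKM in Rheb cKO and 2.02 FPKM in Control (log2 fold change -0.03, q = 0.973, in the authors' deposited table). Pfkfb4, at chr9:108991778-109032228 on the plus strand, encodes a hypoxia-inducible isoform first described in testis. It stood at 3.604 FPKM in Rheb cKO and 3.31 FPKM in Control (0.12, q = 0.810, in the authors' deposited table). The make-up of the trio therefore shifted by level. Pfkfb3 held 43.0% of their summed FPKM in Rheb cKO and 61.1% in Control, Pfkfb4 36.8% in Rheb cKO and 24.2% in Control, and Pfkfb2 20.2% in Rheb cKO and 14.7% in Control. In Control Pfkfb3 was 2.52 times as abundant as Pfkfb4, whereas in Rheb cKO the ratio was 1.17. The sum of the 3 was 9.78 FPKM in Rheb cKO, 71.5% of the 13.7 FPKM in Control. A test of these shares was not possible on pooled values.

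**Figure D3:**
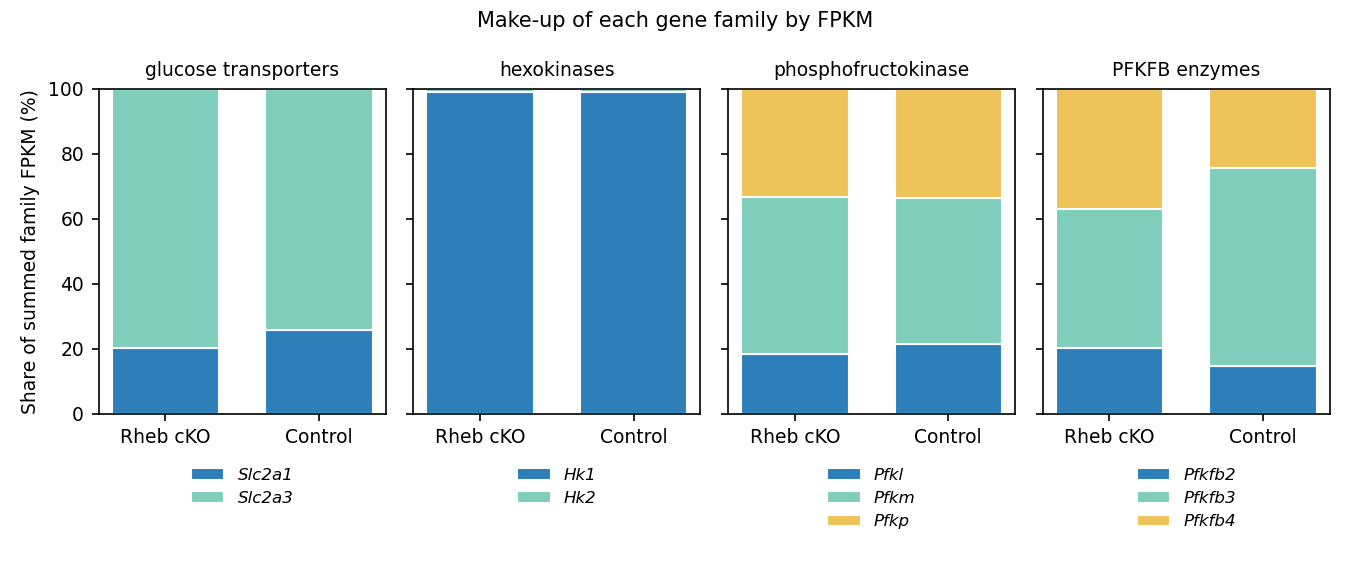
Share of each gene in the summed FPKM of the family genes shown, in percent, for Rheb cKO (left bar) and Control (right bar) in 4 families; each bar sums to 100% and has no error, since each group has 1 value. Pfkfb3 takes 43.0% of the PFKFB trio in Rheb cKO and 61.1% in Control, and Slc2a3 takes 79.8% of its sum with Slc2a1 in Rheb cKO and 74.2% in Control; other SLC2 genes are left out. Hk2 holds 0.993% of its sum with Hk1 in Rheb cKO and 1.01% in Control.

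Hif1a was higher by value without passing the threshold. The gene spans chr12:73901375-73947530 on the plus strand. Its level was 4.18 FPKM in Rheb cKO and 3.33 FPKM in Control. In the authors' deposited table the log2 fold change was 0.33, with an unadjusted p of 0.0308 and q = 0.176. The related subunit Epas1, which encodes HIF2 alpha, had the opposite sign at 11.9 FPKM in Rheb cKO and 14.9 FPKM in Control (-0.32, q = 0.101, in the authors' deposited table). As a result the ratio of Epas1 to Hif1a was 2.85 in Rheb cKO and 4.48 in Control. HIF activity is set largely by oxygen-dependent removal of the protein, which mRNA on ribosomes does not show.

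All 10 listed HIF subunits and hydroxylases were tested and 0 were called by Cuffdiff, beside 8.72% of all tested genes. Hif1a and Epas1, 2 of the 10, had an unadjusted p under 0.05, beside 21.2% of all tested genes. The median log2 fold change of the 10 was -0.05. The most abundant of them were Egln2, an oxygen-sensing prolyl hydroxylase, with 83.0 FPKM in Rheb cKO and 84.0 FPKM in Control, and the HIF partner Arnt2, with 35.9 FPKM in Rheb cKO and 37.7 FPKM in Control.

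Of 29 textbook HIF target genes 28 were tested, of which 4 fell, 1 rose and 23 were not called (17.9% called, beside 8.72% of all tested genes). Their median log2 fold change was 0.02, with 15 above 0 and 13 below. The members Pfkfb3 and Slc2a3 were among the calls, in opposite directions, and Slc2a1, Hk2 and Pfkfb4 were not called. The others that fell were Ndrg1, P4ha2 and P4ha1. Ndrg1, a stress-induced gene that myelinating cells express strongly, stood at 17.0 FPKM in Rheb cKO, against 37.8 FPKM in Control (-1.15, q = 0.00161, in the authors' deposited table). P4ha2 and P4ha1 encode subunits of the enzyme that hydroxylates collagen prolines. Their log2 fold changes in the authors' deposited table were -0.75 (q = 0.00625) for P4ha2 and -0.54 (q = 0.00874) for P4ha1.

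Txnip was low and was not called. Txnip is compact, 3927 bases long, and spans chr3:96557957-96561883 on the plus strand. Its level was 3.18 FPKM in Rheb cKO and 2.71 FPKM in Control (log2 fold change 0.23, q = 0.821, in the authors' deposited table). In GENCODE M21 the antisense gene Gm15441 covers the whole of Txnip on the opposite strand, and 15.7% of the 50-base words in Txnip transcripts also occur in another gene. The library kit keeps strand, but the strand setting of the authors' counting is not given in the sources used here, so reads of Gm15441 and Txnip may not have been separated.

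Of 13 listed genes of the alpha-arrestins, thioredoxins and glucose-sensing Mondo factors, 11 were tested, 1 fell and 10 were not called, with a median log2 fold change of -0.06. The share called, 9.09%, was near the 8.72% of all tested genes. The gene that fell was Arrdc3, an alpha-arrestin, at 3.33 FPKM in Rheb cKO, against 4.91 FPKM in Control (-0.56, q = 0.00785, in the authors' deposited table). Arrdc4, the closest relative of Txnip and like it induced by glucose, stood at 6.91 FPKM in Rheb cKO and 3.06 FPKM in Control. Its log2 fold change of 1.17 was the highest of the list but was not called (q = 0.0893, in the authors' deposited table). For Mlx, the partner of the glucose-sensing factors that drive Txnip and Arrdc4, the fold in the authors' deposited table was -0.51 on the log2 scale (q = 0.108). Epas1, Arrdc4 and Mlx are named because of their values.

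**Figure D4:**
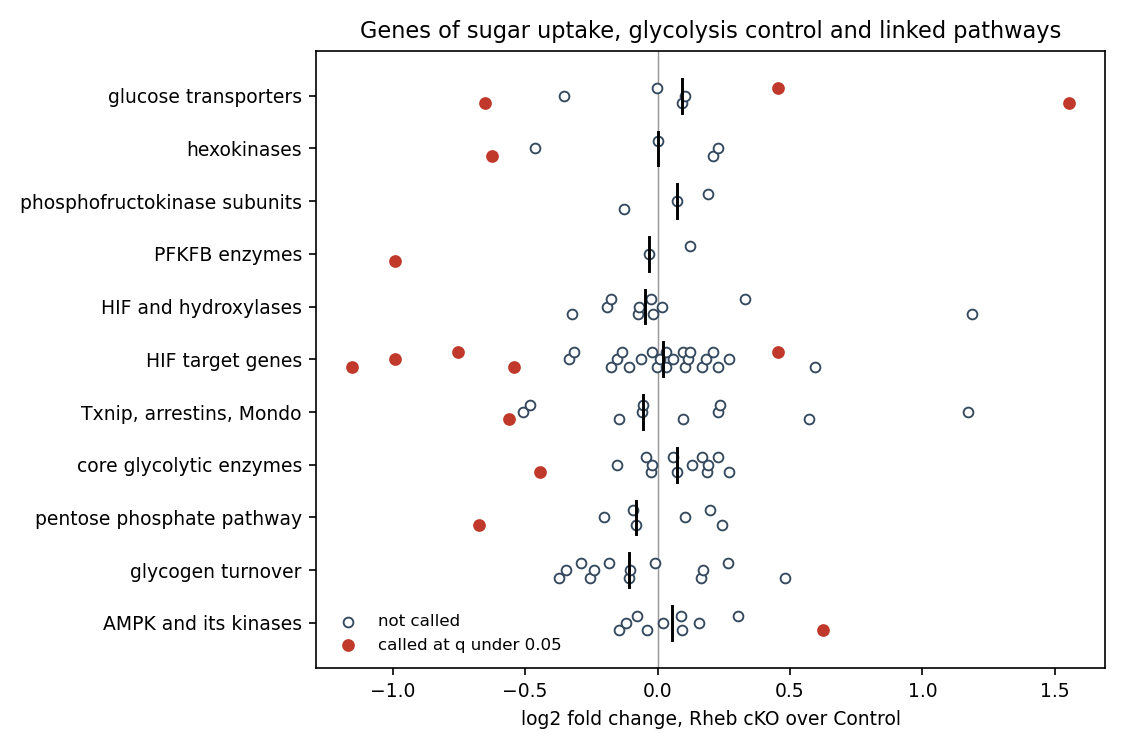
Log2 fold change, Rheb cKO over Control, of every tested gene of 11 gene lists around glucose use; filled red points are called at a q under 0.05, open points are not, and the vertical bar is the median of the list. Medians lie between -0.11 and 0.09, and most of the 12 called genes lie below 0.

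Over all 11 lists there were 112 distinct genes, of which 96 were tested, 3 rose and 9 fell. The share called lower was 9.38% and the share called higher 3.12%, beside the backgrounds of 4.58% and 4.14% given above. Without the 9 members these counts were 2 higher and 8 lower of 87. The lists were chosen with earlier results of these data known, and the differences from the backgrounds were not tested. Among 13 core glycolytic enzymes 1 fell, Aldoc, an aldolase of astrocytes, and 12 were not called (7.69% called, near the 8.72% of all tested genes). The summed level of the 13 enzymes was 11938 FPKM in Rheb cKO and 11231 FPKM in Control, a sum that follows its most abundant genes. Of their folds 8 lay above 0 and 5 below, with a median log2 fold change of 0.07.

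The fold that Cuffdiff called depended on level, which bears on the 5 members with a mean FPKM under 5. Between 1 and 5 FPKM, 8.24% of 3749 genes were called, and the smallest fold called was 0.38, without regard to sign. For called genes of that range the median was 0.86. Hk2, Pfkfb2, Pfkfb4, Hif1a and Txnip lie in this range with folds of at most 0.33 in size. No change of that size was called at these levels, which does not show that such changes are absent. The smallest change that could be detected was not tested. Between 5 and 20 FPKM, where Slc2a1 and Pfkfb3 lie, the smallest called fold was 0.35.

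Some sequence shared with other genes was found in 7 of the 9 members, in shares that differed widely. Of the 50-base words in the GENCODE M21 transcripts of Pfkfb3, 0.376% also occurred in another gene, and for Slc2a3 the share was 1.26% and for Slc2a1 1.54%. Hk2 and Pfkfb4 had 0 such words among 5964 and 5158. The highest shares were those of Txnip, given above, and of Pfkfb2, with 17.3%. Matches were counted over each transcript of the other gene, so a gene with many transcripts can lead. The gene with the most matches to Pfkfb2 was Gm29427, which overlaps Pfkfb2 on the same strand. The Pfkfb2 FPKM depends on how reads of shared words were assigned. Hif1a had 5.74%, and the gene with the most matches was the antisense gene Gm15283, which covers all of Hif1a. The protein-coding gene Gm49321 also overlaps Hif1a, on the same strand. For Pfkl the share was 0.0298%.

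Markers of other cell types moved in the same comparison. Over all tested genes 4.58% were called lower and 4.14% higher, and 21.2% had an unadjusted p under 0.05. Fewer cells of a type, less RNA per cell and a difference in what the antibody pulled down cannot be told apart in these values. Oligodendrocyte markers fell in 12 of 12, led by Mog, Ermn and Mal, with a summed level of 1343 FPKM in Rheb cKO and 3769 FPKM in Control. Mural cell markers, of the cells that wrap vessels, fell in 5 of 7 tested (9 listed), led by Kcnj8, Vtn and Acta2 (43.9 FPKM in Rheb cKO and 82.8 FPKM in Control, summed). Astrocyte markers fell in 3 of 12 and rose in 2, the largest changes being those of Ntsr2 and S100b, which fell, and Gfap, which rose, with a median log2 fold change of -0.14 and sums of 774.1 FPKM in Rheb cKO and 864.5 FPKM in Control. Of 12 listed endothelial markers only 6 were tested, Egfl7 and Slc7a5 being the most abundant. None of the 6 was called by Cuffdiff, and 0 had an unadjusted p under 0.05 (median -0.01, sums 82.6 FPKM in Rheb cKO and 89.7 FPKM in Control). Egfl7 made up 57.7 FPKM of the sum in Rheb cKO and 67.8 FPKM in Control. Neuronal markers rose in 1 of 10, Celf4, with a median of 0.21 and sums of 3718 FPKM in Rheb cKO and 3478 FPKM in Control. Of the 10 neuronal folds 7 lay above 0 and 3 below, and 4 genes had an unadjusted p under 0.05. Precursor markers fell in 3 of 7, Olig1, Gpr17 and Sox10, with a median log2 fold change of -0.26 over the 7. Olig2 (-0.26), Pdgfra (-0.01), Cspg4 (0.16) and Vcan (0.55) were not called. Of 8 tested microglial markers (10 listed), Aif1 and C1qa being the most abundant, 0 were called by Cuffdiff, 2 having an unadjusted p under 0.05. Summed precursor levels were 193.6 FPKM in Rheb cKO and 324.3 FPKM in Control. Olig1 alone made up 120.4 FPKM of that sum in Rheb cKO and 232.0 FPKM in Control. Summed microglial levels were 26.8 FPKM in Rheb cKO and 22.8 FPKM in Control. All 62 tested markers had values above 0 in both groups. Only tested genes are listed and few of them are at 0, so this count was nearly fixed beforehand. The oligodendrocyte sums above show that RNA of cells other than the labelled neurons was present in both groups. The part of the cell type markers in the values of Pfkfb3 and Slc2a3 was not tested.

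**Figure D5:**
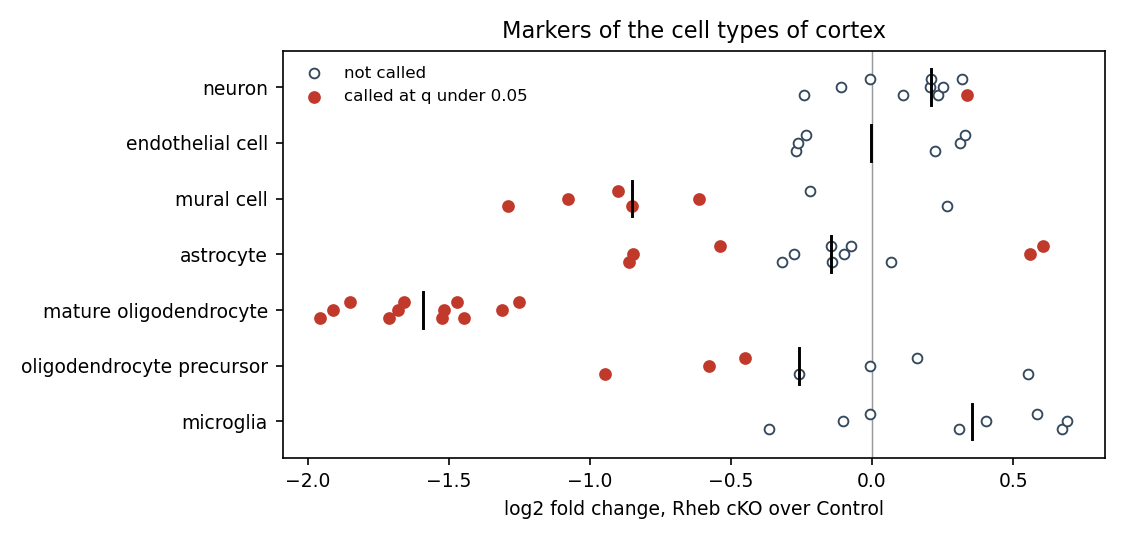
Log2 fold change, Rheb cKO over Control, of the tested marker genes of 7 cell types; filled red points are called at a q under 0.05, open points are not, and the vertical bar is the median. All 12 oligodendrocyte markers lie between -1.96 and -1.25, while the median is 0.21 for neuronal and -0.01 for endothelial markers.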

How the data were processed

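Per the labels' protocols, a strand-keeping mRNA kit was used for ribosome-bound RNA from cortex; 3 libraries per group were assigned from the sample titles. Cuffdiff 2.2.1, TopHat2 2.1.0 and mm10 appear in the submitters' processing notes without role or setting. The authors' FPKM columns hold 1 value per gene and group, per the file headers. The authors' table also holds a log2 fold change (Rheb cKO over Control, no pseudocount), a test score (the signed statistic, not used for results), a p-value and a q-value. Between the deposited folds and those computed from FPKM the largest difference was 1.23e-05, and Benjamini-Hochberg adjustment of the p-values gave the q-values to within 7.27e-05.

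All 13192 genes of the longer table were read, each with test status OK; the shorter table of called genes was not used. Genes listed at 0, 5 in Rheb cKO and 12 in Control, were kept out of medians of the fold. No test of differences was run here, since pooled values have no replicates; where libraries share an animal, the q-values cover technical spread only. Members and the 11 pathway and 7 marker lists, taken from textbook knowledge, were chosen with earlier results of these data known. List genes named are the called ones with a mean FPKM of 1 or more, at most 4 per pathway list by size of fold, or the 2 most abundant where none is called; marker lists follow the same rule with at most 3, and other names are stated as picked later or belong to the family of a member. Gene positions, overlaps and shared 50-base words come from GENCODE M21 (same build as mm10, positions from 1), and promoters from RefSeq. Python 3.11.15, numpy 2.4.6, pandas 2.3.3 and matplotlib 3.10.9 were used, and the adjustment and trend steps were tested on simulated data. Alternatives were other q thresholds, other adjustments, 1 added to each FPKM, other scalings and removal of trends.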

Additional observations from a re-analysis of the deposited data

How the results depend on the processing

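Pfkfb3 stayed called lower and Slc2a3 called higher, with 1 member called in each direction, at q thresholds of 0.01 and 0.1 and with adjustment limited to genes whose mean FPKM reached 1. The q-values in the authors' deposited table, 0.00161 for Pfkfb3 and 0.00406 for Slc2a3, fixed the outcome for these 2 genes at both thresholds beforehand. Under Bonferroni adjustment the members called were 0 higher and 0 lower, since the smallest Cuffdiff p-value given, 5e-05, cannot pass it over 13192 genes; at an unadjusted p under 0.05 there were 3 members. With 1 added to each FPKM, with rescaling, or with trends on level, length or GC removed, the Pfkfb3 log2 fold change lay between -1.04 and -0.84 and that of Slc2a3 between 0.38 and 0.46. The length and GC trend was added after the data were seen. In 45 such recomputed member folds, each change from the deposited fold was under 0.15, and 2 changed sign, both of Slc2a1, whose value is near 0. Genes called higher over the pathway lists numbered 3 at a q under 0.05 and 5 at a q under 0.1. With all measured family members counted, the Slc2a3 share was 57.0% in Rheb cKO and 45.5% in Control. No paired analysis was possible because each group is 1 pooled value per gene, and leaving out single libraries was not run for the same reason. Depth per library is unknown here, and it limits the 5 members under 5 FPKM most.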

Other observations

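Of 7 genes of the pentose phosphate pathway 1 fell and 6 were not called (14.3% called, beside 8.72% of all tested genes), with a median log2 fold change of -0.08. The one that fell was Taldo1, the transaldolase of that pathway, with 174.2 FPKM in Rheb cKO, against 277.7 FPKM in Control (-0.67, q = 0.00161, in the authors' deposited table). Of 13 genes of glycogen turnover 0 were called by Cuffdiff, beside 8.72% of all tested genes. An unadjusted p under 0.05 was found for 1 of the 13, Pygm, beside 21.2% of all tested genes. Pygm, the muscle-type glycogen phosphorylase, stood at 49.6 FPKM in Rheb cKO and 35.6 FPKM in Control (0.48, q = 0.116, in the authors' deposited table). For Pgm2, a phosphoglucomutase, the fold in the authors' deposited table was 0.16 on the log2 scale (q = 0.572).

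AMPK is the kinase that senses low energy and phosphorylates both TXNIP and PFKFB enzymes. Of 10 tested genes for its subunits and upstream kinases 1 rose and 9 were not called, with a median log2 fold change of 0.06. The share called, 10%, was near the 8.72% of all tested genes. The riser was Prkab1, a regulatory subunit, at 6.94 FPKM in Rheb cKO, against 4.50 FPKM in Control (0.63, q = 0.0170, in the authors' deposited table).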
